A study of Mus musculus with 6 samples.

Results

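RNA level and chromatin accessibility were compared gene by gene in wild-type mouse embryonic pancreas at embryonic day 10.5 (E10.5). The comparison covered the 8268 genes named in both the RNA gene file (31028 genes) and the accessibility gene file (8269 genes). Each gene had 1 RNA level, its CPM (counts scaled to a common library total) in the sum of unique molecular identifiers (UMIs, 1 tag per RNA molecule) over barcodes with at least 1000 detected genes, and 1 accessibility level, the mean of the deposited gene score over all wild-type nuclei. Discordant genes were then chosen by these wild-type levels, so their wild-type values are a description. Open but silent genes had a score in the top 10% (at or above 2.06) and under 1 CPM, and there were 10 of them (0.121% of the shared genes). Expressed genes with a low score had at least 100 CPM and a score in the bottom 10% (at or below 0.533), and there were 109 of them (1.32%). The remaining 8149 genes fell in neither class.

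The wild-type embryos were Ptf1a+/+ and the comparison embryos were Ptf1aenh-delta/enh-delta, in which both alleles lack a Ptf1a enhancer (called KO here, after the sample titles). Both were C57BL/6. E10.5 tissue was dissected by hand and pooled from 5 to 9 embryos per library, and E13.5 pancreas from 6 embryos per library. Each genotype had 1 single-cell RNA library at E10.5, 1 single-nucleus ATAC library at E10.5 and 1 at E13.5. ATAC-seq uses a transposase that cuts accessible DNA. With 1 library per group there is no replicate error, so no test was run and values below describe these libraries. RNA and accessibility came from separate libraries, and 0 barcodes were shared between them.

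The wild-type RNA library held 451 barcodes above the filter, with 4106604 UMIs and a median of 6700 per barcode. The wild-type ATAC library held 838 nuclei, with a median of 4846 genes above 0. The KO libraries at E10.5 held 369 RNA barcodes and 700 nuclei, and 1 barcode was shared between the kept wild-type and KO RNA cells. The E13.5 ATAC libraries held 2314 wild-type and 602 KO nuclei, and 4 barcodes occurred in both the E10.5 and the E13.5 wild-type ATAC libraries. Each nucleus had been scaled to a total score of 10000, so the number of fragments behind a score is unknown. Of 45 cell type markers, 43 were in the RNA file and 0 of these lacked UMIs. The file lacked the erythroid markers Hba-x and Hbb-y, which are globin genes. The 10 progenitor and epithelial markers summed to 1538 CPM, the 8 mesenchymal markers to 549.8 CPM and the 8 endocrine markers to 7291 CPM, of which the hormone gene Gcg made up 6196 CPM. Endothelial, erythroid, immune and neural markers summed to 21.2, 11, 4.38 and 48.0 CPM. The libraries were thus mixtures, and in their sums a change in the number of cells of a type and a change in RNA per cell cannot be told apart.

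A gene score usually summarises how often the DNA over and around a gene is cut. Open chromatin at a promoter is generally needed for transcription but does not by itself produce it. Promoters rich in CpG dinucleotides, typical of housekeeping genes and of many developmental regulators, tend to be open in most cell types, whereas CpG-poor promoters are more often open only where the gene is used. Messenger RNA level also depends on how fast a gene is transcribed and how long its RNA lasts, so the level of a gene and the openness of its DNA need not rank alike.

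The promoters of the 3 leading genes of each class show how different the underlying sequence can be. They are RefSeq sequences of build GRCm38.p6, from 250 bases before to 50 bases after the annotated start, written 5′ to 3′ on the gene's strand, with CpG dinucleotides in capitals. The first 3 belong to open but silent genes with the highest scores and the last 3 to low-score genes with the highest RNA levels. Icam4 lies on the plus strand at chr9:21029182-21029481, Tbxas1 on the plus strand at chr6:38918736-38919035 and Slc25a21 on the minus strand at chr12:57197423-57197722. Rps4x lies on the minus strand at chrX:102189342-102189641, Rps25 on the plus strand at chr9:44407464-44407763 and Serf2 on the plus strand at chr2:121448948-121449247.
Icam4: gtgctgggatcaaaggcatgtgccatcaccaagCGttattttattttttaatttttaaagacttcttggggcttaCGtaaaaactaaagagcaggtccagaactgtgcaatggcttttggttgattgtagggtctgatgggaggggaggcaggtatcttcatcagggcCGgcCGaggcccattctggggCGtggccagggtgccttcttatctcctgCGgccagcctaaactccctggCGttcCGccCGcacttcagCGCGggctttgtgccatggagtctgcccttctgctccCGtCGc
Tbxas1: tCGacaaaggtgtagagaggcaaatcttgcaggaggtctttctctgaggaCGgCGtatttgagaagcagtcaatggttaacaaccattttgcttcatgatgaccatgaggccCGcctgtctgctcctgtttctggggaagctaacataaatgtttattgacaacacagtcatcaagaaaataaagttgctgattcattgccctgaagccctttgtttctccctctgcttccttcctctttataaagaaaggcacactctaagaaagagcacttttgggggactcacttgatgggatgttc
Slc25a21: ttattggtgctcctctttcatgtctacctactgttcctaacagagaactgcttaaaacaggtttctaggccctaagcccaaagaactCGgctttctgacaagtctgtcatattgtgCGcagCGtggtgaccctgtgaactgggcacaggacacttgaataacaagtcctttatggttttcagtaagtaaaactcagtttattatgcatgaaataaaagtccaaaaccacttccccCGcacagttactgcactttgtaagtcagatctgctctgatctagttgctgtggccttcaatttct
Rps4x: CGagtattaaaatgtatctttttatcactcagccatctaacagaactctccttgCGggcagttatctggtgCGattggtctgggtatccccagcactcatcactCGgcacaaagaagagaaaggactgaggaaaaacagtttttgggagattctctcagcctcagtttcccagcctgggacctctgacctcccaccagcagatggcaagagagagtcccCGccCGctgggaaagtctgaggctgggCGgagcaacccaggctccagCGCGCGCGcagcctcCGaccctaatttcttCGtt
Rps25: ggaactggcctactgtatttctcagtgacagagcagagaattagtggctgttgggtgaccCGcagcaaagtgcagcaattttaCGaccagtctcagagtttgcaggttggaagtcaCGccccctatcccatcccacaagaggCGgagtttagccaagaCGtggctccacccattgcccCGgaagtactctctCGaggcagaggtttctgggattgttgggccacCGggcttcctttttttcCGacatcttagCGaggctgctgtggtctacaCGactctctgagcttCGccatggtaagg
Serf2: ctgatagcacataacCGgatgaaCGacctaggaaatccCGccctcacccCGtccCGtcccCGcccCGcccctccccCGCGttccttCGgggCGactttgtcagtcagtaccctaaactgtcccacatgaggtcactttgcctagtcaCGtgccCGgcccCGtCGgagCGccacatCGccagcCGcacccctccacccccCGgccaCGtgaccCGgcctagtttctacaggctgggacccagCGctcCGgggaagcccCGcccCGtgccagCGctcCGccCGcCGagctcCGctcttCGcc
Serf2 had 31 CpG dinucleotides in this window, against 13 in Icam4 and Rps4x, 12 in Rps25, and 4 in Tbxas1 and Slc25a21. The letters TATAAA occurred in the Tbxas1 window and in 7.29% of all matched promoters of this length, searched on both strands. The Tbxas1 and Rps25 windows lie inside these genes as GENCODE M21 draws them (chr6:38875404-39084585 and chr9:44407139-44410427), downstream of that annotation's starts.

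Across the 8268 genes, RNA level and score ranked only weakly alike. Spearman's rho was 0.115 and Pearson's r between log2(CPM + 1) and log2(score + 0.1) was 0.163. These are correlations across genes, which are not independent replicates, and all genes share the same 2 libraries. They leave out most silent genes. The accessibility file held 99.0% of RNA-file genes at 100 CPM or more but 1.72% of those under 1 CPM. The relation over all genes of the RNA file is therefore not known from these values. The median gene had 37.5 CPM and a score of 1.04, and scores ran from 0 to 16.2. In the KO libraries at the same stage the same relation had a rho of 0.139. The ranking of genes was otherwise stable between genotypes, with a rho of 0.979 between wild-type and KO scores and of 0.974 between wild-type and KO RNA levels. The weak relation across assays thus stood beside close rankings within each assay.

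**Figure D1:**
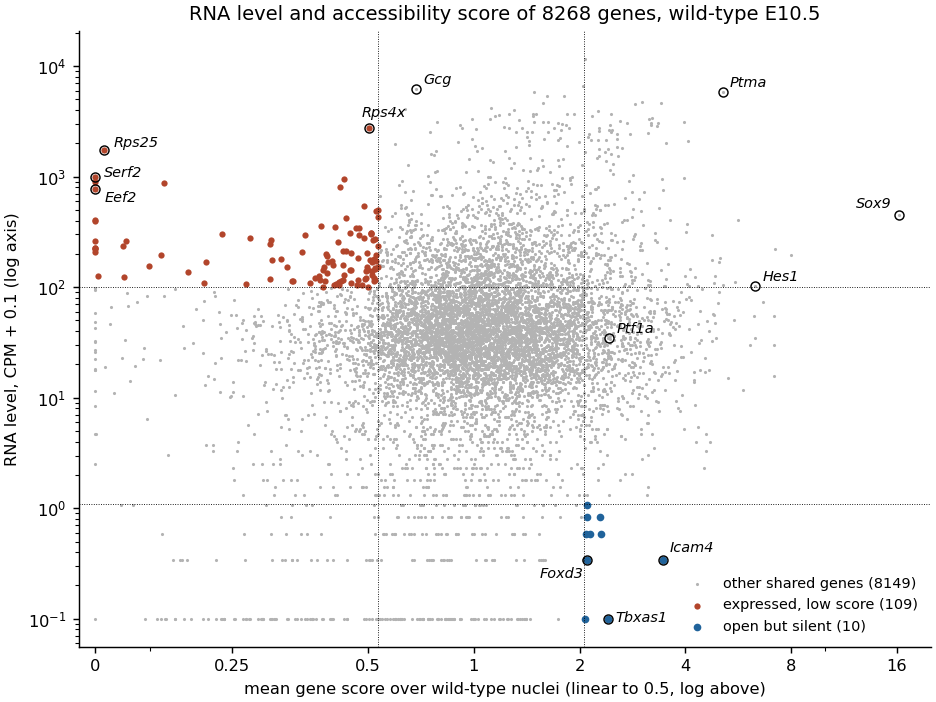
RNA level (CPM + 0.1, log axis) against mean gene score (linear up to 0.5 and log above) for each of the 8268 shared genes, with dotted lines at 1 and 100 CPM and at the scores 0.533 and 2.06. The 10 open but silent genes lie at the lower right, the 109 expressed genes with a low score at the upper left, and circles mark named genes.

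The differences lay mainly at the ends of the score range and in the most abundant RNAs. Mean RNA level rose from 59.7 CPM in the lowest decile of scores to 243.5 CPM in the highest, a ratio of 4.08. The median moved far less, from 27.3 to 45.8 CPM, and between the second and the ninth decile it stayed between 36.3 and 41.2 CPM. The share of genes at 100 CPM or more went from 13.2% in the lowest decile to 26.1% in the highest, against 19.6% of all shared genes (1618). Genes under 1 CPM, 3.66% of all shared genes (303), made up 12.8% of the lowest decile and 1.21% of the highest. The quartiles of adjacent deciles overlapped throughout.

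**Figure D2:**
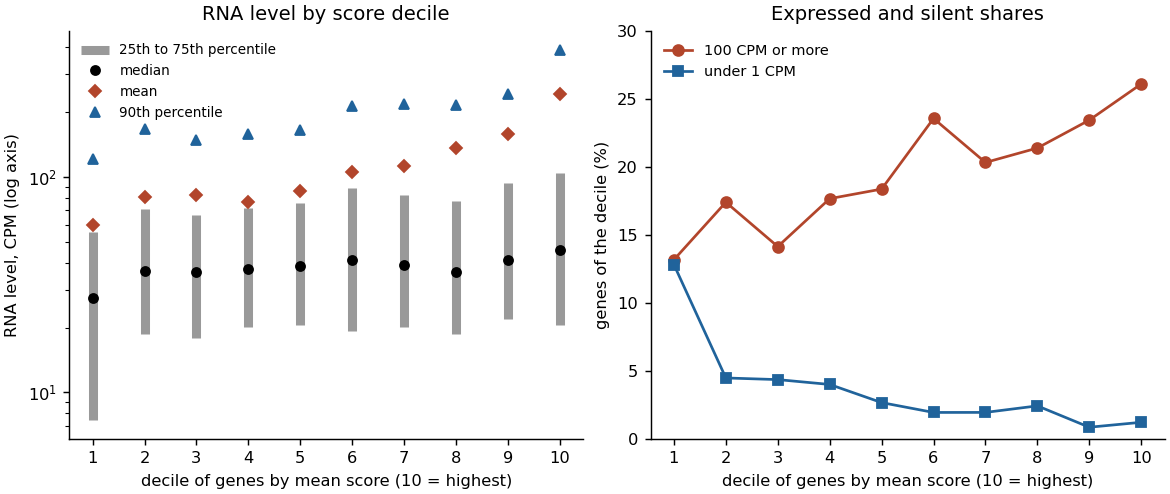
Left, RNA level (CPM, log axis) in each decile of genes ordered by score, with the median, mean, quartile range and 90th percentile. Right, the share of each decile at 100 CPM or more and under 1 CPM; the median hardly moves after the lowest decile, while the expressed share goes from 13.2% to 26.1%.

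The size of the score, more than the number of nuclei with any score, followed RNA level. When genes were ranked by the share of nuclei above 0, rho fell to 0.014 and the ratio of mean CPM between the highest and lowest decile turned to 0.907. With the median score over nuclei, rho was 0.035, and 3008 genes had a median of 0.

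The relation differed between genes with CpG-rich and CpG-poor promoters, a difference that was not tested. RefSeq promoters were matched for 6691 of the 8268 genes (80.9%, 88 of them through an older symbol). Among the 5084 genes with a promoter CpG ratio (observed over expected) of at least 0.6, rho between score and CPM was 0.036. Among the 1607 genes below 0.6 it was 0.292. The silent share was 0.551% in the CpG-rich group and 12.4% in the CpG-poor group, whose median RNA levels were 43.1 and 21.9 CPM. Median scores were close, at 1.06 and 0.978. CpG ratio ranked with RNA level (rho 0.289) and hardly with score (rho 0.032).

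Gene length moved with the score in a curve. Of 5 length classes of equal size, the shortest (up to 8072 bp) had a median score of 1.38, the fourth (32992 to 70998 bp) 0.873, and the longest (from 71019 bp) 1.23. In the same order, 22.3%, 1.88% and 17.1% of genes were in the top 10% of scores. Within length classes, rho between score and CPM lay between 0.076 and 0.158. The sources used here do not say how the score treats gene length. The score was also adjusted by a straight line of log score on log length. The slope of that line was -0.0104, so it could hardly change the values and could not remove the curve. With it, rho was 0.111 and 7 genes were open but silent, all among the 10. Expressed genes with a low score then numbered 110, 109 of them in the class described here. These values therefore do not show what gene length contributes. The gene lists below also differ in median length, which was 24150 bp for all shared genes. It was 3266 bp for ribosomal proteins, 3951 bp for immediate early genes, 6358 bp for gut genes and 6858 bp for progenitor factors. Oxidative phosphorylation, proteasome and translation factor lists had 7674, 12062 and 18253.5 bp. The part of length in the scores of lists was not tested.

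Genes of the pancreatic progenitor programme had high scores at moderate RNA levels. Of 17 progenitor factors in both files, 14 were in the top 10% of scores, where 10% of all shared genes lie, and their median score percentile was 95.3 against a median RNA percentile of 69.4. Most of the 17 lay far from other genes, and the part of this in their scores was not tested. The nearest other protein-coding gene start was 837118 bp from that of Sox9, 199069 bp from Rbpj and 17197 bp from Foxa1. The median for all shared genes was 22316 bp, and only Foxa1 of the 17 was below it. Sox9, a regulator that keeps pancreatic progenitors in their state, had the highest score of all genes, 16.2, at 450.7 CPM. Its KO score was 17.2, and it scored 15.2 in wild type and 6.44 in KO at E13.5. Within the list, Hes1, a Notch target, came next with 6.32 at 101.5 CPM, and Foxa2, a pioneer factor of the endoderm, with 5.56 at 110.3 CPM. Foxa1 had a score of 3.91 at only 10.5 CPM, and Gata4, an endoderm regulator, one of 3.32 at 27.8 CPM. The lowest score of the list was 1.24, at Rbpj, the DNA-binding partner of Notch and of Ptf1a, with 63.3 CPM.

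Other progenitor factors lay between these. Nkx6-2 had a score of 3.51 at 103.5 CPM and Tcf7l2 one of 3.07 at 97.6 CPM. Nr5a2 scored 2.61 at 46.3 CPM, Nkx6-1 2.59 at 55.5 CPM and Pdx1 2.39 at 137.6 CPM. Pdx1 and Nkx6-1 are homeodomain factors of the pancreatic bud, and their scores differed by less than their RNA levels did. Prox1 scored 2.14 at 141.5 CPM and Hhex 2.13 at 42.1 CPM. Just below the top 10% came Gata6 with 1.97 at 74.3 CPM and Sall4 with 1.78 at 42.4 CPM. Ptf1a itself scored 2.43 in wild-type nuclei at 34.6 CPM (29.1 to 40.8, exact 95% Poisson interval, counting error only). In KO it scored 1.70 and had 0 UMIs, which allows up to 0.748 CPM. Its scores at E13.5 were 3.81 in wild type and 1.12 in KO.

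Immediate early genes, switched on within minutes of a stimulus and also by tissue dissociation, combined high scores with little RNA. Of 15 in both files, 13 were in the top 10% of scores, and the list's median was at score percentile 97.4 and at 9.74 CPM. Socs3, a feedback inhibitor of cytokine signalling, scored 4.71 at 3.90 CPM. Fos scored 3.96 at 5.11 CPM and Junb 3.76 at 9.25 CPM. Ier3 (2.43) had 5 UMIs, 1.22 CPM, and Fosb (2.6) had 7 UMIs, 1.70 CPM, both just above the 1 CPM limit. Jun and Jund were the 2 of the list above 100 CPM, with scores of 4.77 and 3.0 at 177.0 and 249.8 CPM. Klf6, at 2.05, and Klf2, at 1.3, were outside the top 10%.

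Regulators of neighbouring gut gave a similar picture with fewer genes. Of 7 gut and stomach genes in both files, 4 were in the top 10% of scores, at a list median of 2.92 CPM. Of the 7, 0 reached 100 CPM, where 19.6% of all shared genes did, so with so few genes little can be read from that count. Cdx2, the intestinal master regulator, scored 3.25 with 14 UMIs (3.41 CPM), and Sox2, of the stomach and foregut, 3.14 with 12 UMIs (2.92 CPM). Ihh, a hedgehog ligand of gut epithelium, scored 2.39 and Tff3, a mucosal peptide, 2.35. Osr2 had 0 UMIs and a score of 2.04, just under the limit for the open but silent class. The RNA file held 16 genes of this list, of which the other nine were not in the accessibility file.

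Housekeeping lists differed among themselves in score although all had abundant RNA. Cytosolic ribosomal proteins had a median of 2755 CPM and a median score percentile of 79.5, and 26 of 82 were in the top 10%. Translation factors (56 genes) were at score percentile 53.4, oxidative phosphorylation genes (75) at 45.7 and proteasome genes (46) at 39.7, with median RNA levels of 182.6, 362.1 and 203.2 CPM. The genes highest on both scales were Ptma, encoding the chromatin protein prothymosin alpha, with 5831 CPM and a score of 5.12, and ribosomal protein genes. Rps21 had 3094 CPM at 3.97, Rpl41 4679 CPM at 3.41 and Rpl10a 2110 CPM at 4.09. Gcg, the glucagon gene, stood opposite: it was among the most abundant RNAs, at 6196 CPM, but its score of 0.684 was at percentile 20.1. Its UMIs were in 28.8% of cells, whereas the score is a mean over all nuclei of a separate library. The low mean therefore does not give the score in nuclei that make Gcg. The endocrine list (23 genes) had a median score percentile of 68.8 at 79.1 CPM.

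Genes of blood and vessels had low score percentiles and little RNA. Erythroid genes (11) had a median score percentile of 16.3 and a median of 1.70 CPM, and endothelial and immune genes (15) one of 23.4, also at 1.70 CPM. Digestive enzyme and acinar genes (11), which are used later in development, had a median score percentile of 34.7 and a median of 10.2 CPM. Neural factors (14, from 85 in the RNA file) had a median of 2.92 CPM and a median score percentile of 66.8. Of the 14, 4 were in the top 10% of scores.

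**Figure D3:**
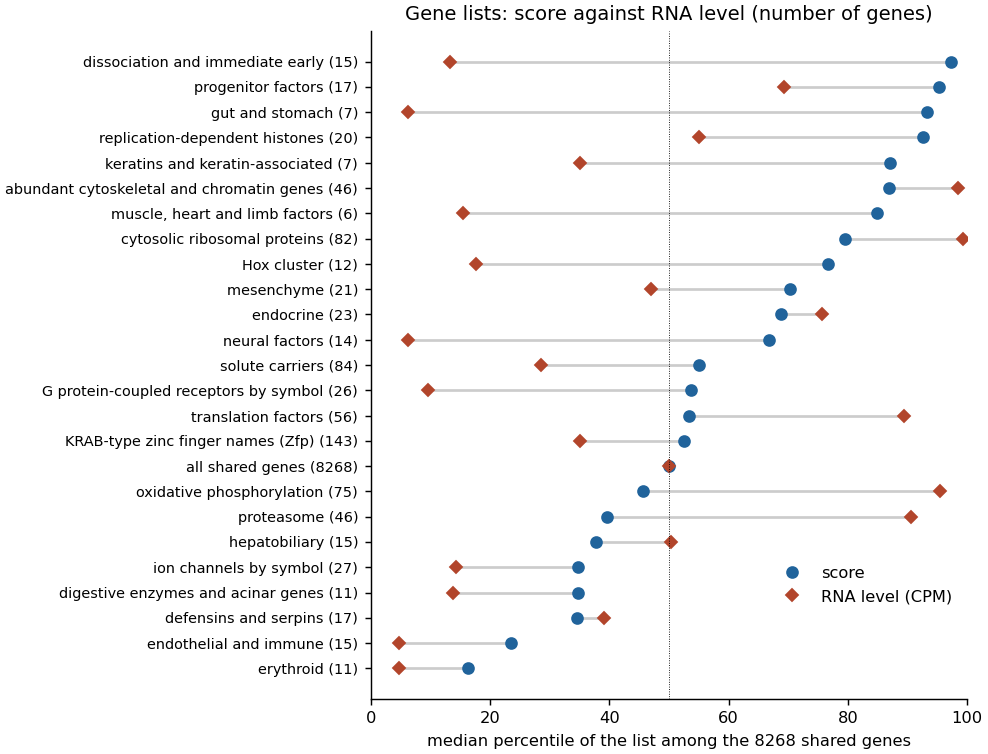
Median percentile of score (circles) and of RNA level (diamonds) among the 8268 shared genes for each gene list with at least 6 shared genes, ordered by score, with the number of genes in parentheses. Lists such as immediate early, gut and progenitor genes have high scores beyond their RNA. Lists with abundant RNA, among them ribosomal protein, translation factor, oxidative phosphorylation and proteasome genes, all rank lower in score than in RNA.

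The accessibility gene list set how many silent genes could be seen at all. It held 1618 of the 1634 RNA-file genes at 100 CPM or more (99.0%) but 303 of the 17652 under 1 CPM (1.72%), and 140 of the 14166 with 0 UMIs (0.988%). It held 0 of 26 germline genes, 0 of 56 clustered protocadherins and 1 of 1475 chemosensory receptors. The open but silent class was therefore drawn from 303 silent genes. The sources used here do not say how the list was chosen. Of these 303 genes, 10 were in the top 10% of scores (3.30%) and 106 were in the bottom 10% (35.0%), each against 10% of all shared genes.

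The 10 open but silent genes included 4 transcription factor genes, 3 genes of blood cell surface proteins, 1 enzyme gene and 1 mitochondrial carrier gene. Together they had 18 UMIs in the wild-type RNA library, never more than 1 in a cell. Tbxas1 and Tlx2 had 0 UMIs, which allows up to 0.731 CPM (3 counts). For the other 8 genes the Poisson interval of the RNA level reached past 1 CPM, so that their side of the limit is not fixed at this depth. Their scores clustered at the score limit: 9 of the 10 lay between percentiles 90.2 and 94.1. Icam4 alone was higher, at 98.5.

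Icam4, which encodes an adhesion protein of red cell precursors, is a short gene (chr9:21029373-21030595, plus strand). The start of Icam5 lies 2700 bp from that of Icam4, and the part of this neighbour in the Icam4 score was not tested. The Icam4 score was 3.45 in wild-type E10.5 nuclei, 3.18 in KO, and 3.39 and 4.04 in wild-type and KO E13.5 nuclei. It was in the top 10% of each library. It had 1 UMI in wild type (0.244 CPM, 0.006 to 1.36) and 10 in KO (2.49 CPM). Epor, the erythropoietin receptor gene, had scores of 2.10, 1.84, 2.03 and 3.31 in the same order of libraries, with 4 UMIs in wild type and 10 in KO. Cd52, a surface glycoprotein gene of lymphocytes, had 2.14, 1.99, 2.11 and 1.49, with 2 and 6 UMIs. The markers of red and immune cells that the RNA file held were present at low levels there (11 and 4.38 CPM summed). The red cell sum leaves out the globin genes Hba-x and Hbb-y, which were not in that file. The part of these cells in the scores was not tested. At E13.5 the barcode prefixes carry 1 month for wild type and another for KO, so that month and genotype cannot be told apart there.

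The 4 transcription factor genes moved in different directions with stage. Nfix, a nuclear factor I gene that acts in late development of several tissues, scored 2.29 in wild type and 2.24 in KO at E10.5, and 2.78 and 4.15 at E13.5. It had 3 UMIs in wild type and 2 in KO. Foxd3, a regulator of the neural crest, scored 2.10 and 2.09 at E10.5, and 1.55 and 1.25 at E13.5. It had 1 UMI in wild type but 25 in KO (6.23 CPM), the most of the 10 genes in either library. Dlx1, a forebrain homeobox gene, scored 2.09 and 2.00 at E10.5, and 1.41 and 0.836 at E13.5, with 2 and 8 UMIs. Tlx2, a homeobox gene of enteric neurons, scored 2.07 and 1.96 at E10.5, and 1.70 and 1.76 at E13.5, with 0 and 4 UMIs. Thus Nfix had its higher scores at E13.5 and the other three had their lower ones there, in both genotypes.

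Slc25a21, a mitochondrial carrier gene, scored 2.31 and 2.27 at E10.5 and 1.24 and 1.23 at E13.5, with 2 UMIs in each RNA library. Tbxas1, the thromboxane synthase gene, had nearly equal scores throughout, 2.41, 2.37, 2.36 and 2.23, and 0 UMIs in both genotypes. Of the 10, Slc25a21 was the gene whose percentile fell furthest in wild type, from 92.9 to 63.0. Foxa1, its nearest listed neighbour at 343155 bp, also fell, from 99.1 to 72.5, and a link between the 2 was not tested.

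Another protein-coding gene overlapped 4 of the 10 genes (40.0%, against 23.8% of all shared genes and 13.8% of silent ones). Tbxas1 overlaps Hipk2, whose start is 761 bp from the GENCODE M21 start of Tbxas1, not from the RefSeq start of the promoter above. Hipk2 had 123.5 CPM and a score of 1.98. Slc25a21 spans 484839 bp and overlaps Pax9. Nfix overlaps Lyl1, which had 3 UMIs and a score of 0.707, and Cd52 overlaps Crybg2. No source used here says how cuts in overlapping genes were assigned, and the signal of a gene and of its partner cannot be told apart in these values. Without genes that overlap another protein-coding gene, 5 genes met the rule. A promoter was matched for 7 of the 10 (70.0%), under the 80% needed, so no summary of their promoters is given.

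In the KO libraries, which the rule did not use, 5 of the 10 genes (50%) were under 1 CPM (3.7% of all shared genes were). In the top 10% of KO scores were 6 of the 10 (60%). Both shares were lower than those of the sets the class was drawn from. Of all genes under 1 CPM in wild type, 80.9% were so in KO, and 89.7% of the wild-type top 10% of scores stayed there. Both KO conditions held for 4 of the 10, among them Tbxas1, Slc25a21 and Nfix. That is 40.0% of the wild-type class and 80% of the 5 genes that met the rule in KO. The remaining KO gene was Fosb. In each E13.5 library 5 of the 10 were in the top 10%. Of the whole E10.5 wild-type top 10%, 79.2% were there in wild type and 55.0% in KO. Just outside the rule by score were Cd37 (2.04), Osr2 (2.04) and Acap1 (2.02), and the nearest inside were Tlx2 (2.07) and Dlx1 (2.09). By RNA level, Dio3, Ier3 and Ryr2 missed it at 1.22 CPM.

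The 109 expressed genes with a low score were a smaller share of expressed genes than low scores were of all genes. Of 1618 genes at 100 CPM or more, 109 (6.74%) were in the bottom 10% of scores and 216 (13.3%) in the top 10%. Of the 109, 74 had a score above 0.4, 19 one between 0.1 and 0.4, and 16 one of at most 0.1. In RNA level, 63 were under 200 CPM and 46 at or above it. The 3 nearest the RNA limit were Lage3 (100.1 CPM), Sdha (100.6) and Myef2 (104.2), and just outside lay Immp1l (99.1), Pcsk1n (98.6) and Ccdc88a (98.4). The Poisson interval reached below 100 CPM for 12 of the 109. By score, Exosc8 (0.536), Parl (0.537) and Sars (0.537) were just outside.

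The class holds 1.32% of all shared genes and 6.74% of genes at 100 CPM or more, and the counts of lists below are given beside these shares with nothing read from them as particular to a list. Among genes of translation, 2 of 82 cytosolic ribosomal proteins were in the class, Rps4x and Rps25, which had the 2 highest RNA levels in it. Rps4x had 2762 CPM in wild type (2711 to 2813) and 2586 in KO. Its scores were 0.503 and 0.581 at E10.5 and 0.603 and 0.399 at E13.5, for wild type and KO. Rps25 had 1727 CPM in wild type and 1044 in KO, with scores of 0.017, 0.013, 0.050 and 0.060. These Rps25 scores were near 0 in every library, whereas those of Rps4x lay at the edge of the bottom 10%. Of 56 translation factors, 37 reached 100 CPM and 4 were in the class, 10.8% of those 37. Eef2, the elongation factor that moves the ribosome along, had 768.8 CPM in wild type and 904.1 in KO and was listed at 0 in all 4 ATAC libraries. The initiation factor genes Eif3e, Eif3i and Eif1ax had 345.3, 311.7 and 247.4 CPM at scores of 0.478, 0.511 and 0.320. Tma7, a gene linked to translation machinery by its name, had 873.5 CPM at 0.126.

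Of 75 oxidative phosphorylation genes, 68 reached 100 CPM and 5 were in the class, 7.35% of those 68. Cox6c and Cox7b, subunits of cytochrome c oxidase, had 804.6 and 494.8 CPM at scores of 0.449 and 0.533. Atp5c1, a subunit of ATP synthase, had 490.2 CPM at 0.527, Ndufa6, of complex I, 298.8 CPM at 0.384, and Sdha, of succinate dehydrogenase, 100.6 CPM at 0.417. Smdt1, a regulator of the mitochondrial calcium uniporter, had 402.5 CPM and was listed at 0. It lies 1048 bp from Ndufa6.

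Of 46 proteasome genes, 33 reached 100 CPM and 3 were in the class, 9.09% of those 33. Psma7, a core subunit, had 889.8 CPM and was listed at 0, Psmc5 had 260.3 CPM at 0.056 and Psmd6 190.7 CPM at 0.424. Sumo2, a small protein modifier, had 950.7 CPM at 0.456, and Ssb, which binds newly made RNA polymerase III transcripts, 538.6 CPM at 0.492. Of the replication-linked genes, H2afx (264.5 CPM), a histone variant of DNA damage signalling, and Pclaf (395.9 CPM), a partner of the replication clamp, were listed at 0. Hist1h1e, a linker histone gene, was 1 of 20 replication-dependent histone genes in the class, with 179.7 CPM at 0.519. Zfp207 was 1 of 143 zinc finger genes by name, with 139.3 CPM at 0.512.

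Most of the class recurred in KO, at lower shares than in the sets it was drawn from. Of the 109 genes, 99 (90.8%) had at least 100 CPM in KO, where 21.1% of all shared genes did. Of all genes at 100 CPM or more in wild type, 95.3% did. In the bottom 10% of KO scores were 84 of the 109 (77.1%), against 86.1% of all genes in the wild-type bottom 10%. Both held for 75 of the 109, which is 68.8% of the wild-type class and 72.1% of the 104 genes that met the rule in KO. At E13.5, 72 of the 109 (66.1%) were in the bottom 10% in wild type and 51 (46.8%) in KO. For all genes of the E10.5 wild-type bottom 10% these shares were 76.3% and 57.6%.

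X-linked genes made up a larger share of the class than of expressed genes, and about the same share as of low-score genes in general. Of the 109 genes, 16 were X-linked (14.7%), against 3.52% of genes at 100 CPM or more and 3.41% of all shared genes. The share was 15.1% of all genes in the bottom 10% of scores and 15.2% of those under 100 CPM. Among the 57 X-linked genes at 100 CPM or more, 28.1% were in the class, while the autosomes ranged from 2.33% on chromosome 7 to 10.6% on chromosome 11. The 16 included Rps4x, Cox7b, Rbm3, Sms, Eif1ax and Prdx4. The median score of all 282 X-linked genes was 0.574 against 1.06 for 7972 autosomal genes, a ratio of 0.541 and the lowest median of any chromosome. Their median RNA levels were 38.7 and 37.5 CPM, a ratio of 1.03. Bcor, a transcriptional corepressor gene, was the only X-linked gene in the top 10% of scores, with 2.36 at 39.4 CPM.

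Lower X-linked scores recurred in libraries that the rule did not use. The ratio of X-linked to autosomal median scores was 0.528 in KO at E10.5, and 0.510 and 0.496 in wild type and KO at E13.5, while the ratio of median RNA levels in KO was 1.10. Among genes at 100 CPM or more the wild-type ratio was 0.665 for score and 1.02 for RNA. Among CpG-rich promoters it was 0.558 for score. RNA of Xist, made from an inactive X chromosome, and of the Y-linked gene Ddx3y was present in both E10.5 RNA libraries. Xist had 301 UMIs in wild type and 2358 in KO, and Ddx3y 145 and 102. The sexes of the pooled embryos are not given for the libraries, and their part in the scores was not tested. Within X-linked genes, rho between score and CPM was 0.281, against 0.111 within autosomal genes. Leaving X-linked genes out, the rule found 106 genes.

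**Figure D4:**
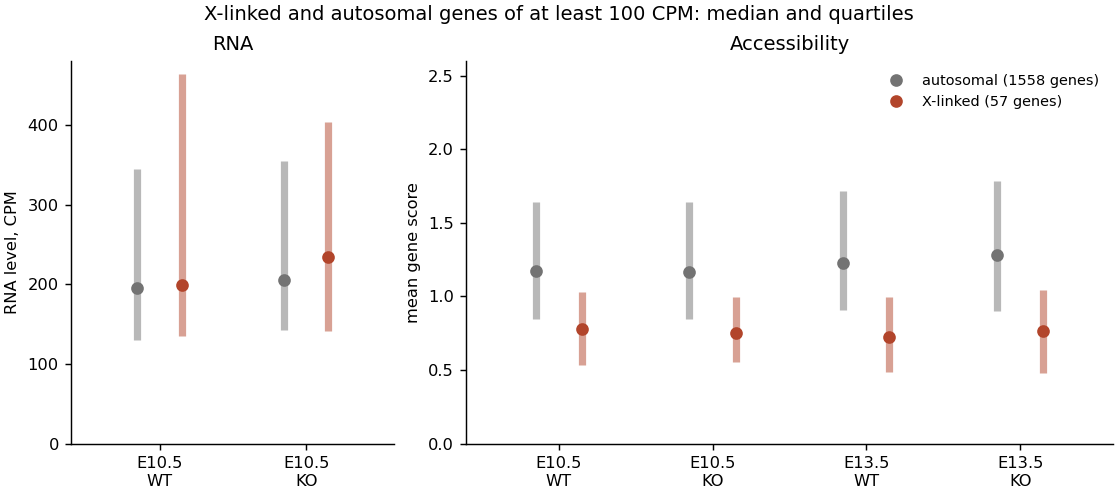
Median (points) and quartile range (bars) of RNA level in CPM, left, and of mean gene score, right, for 57 X-linked and 1558 autosomal genes of at least 100 CPM in wild-type E10.5 cells, in each library. X-linked scores are lower in all 4 ATAC libraries, while the RNA medians are 198.7 and 195.1 CPM in wild type.

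Of all shared genes, 27 were listed at 0 in every nucleus of all 4 ATAC libraries, and 10 of these were in the low-score class. They were Serf2 (993.0 CPM), Psma7, Eef2, Smdt1, Pclaf, H2afx, Arhgdia (227.9 CPM), P4hb (225.2 CPM), Anapc11 (222.3 CPM) and Alyref (209.4 CPM). Only Lcn2 of the 27 was under 1 CPM. Since genes that every cell uses, such as Eef2 and Psma7, are among them, a 0 can be a failed estimate, and these genes are said here only to be listed at 0.

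The genes listed at 0 lay in runs. Of the 27, 16 fell into 4 blocks in which each gene was within 100 kb of the next. The chromosome 11 block (chr11:120560298-120625240) held P4hb, Arhgdia, Alyref, Anapc11, Pcyt2 and Sirt7 at 0. Its edges were low too: Mcrip1, 10570 bp before P4hb, scored 0.098, and Mafg, which overlaps Sirt7, scored 0.249. Aspscr1 and Slc25a10, the next listed genes outward, scored 0.746 and 1.09. The chromosome 9 block (chr9:44334694-44392369) included H2afx, Vps11 and Hyou1 at 0. It was followed by Trappc4 (0.053) and Rps25 (0.017), and then by Ccdc84, which overlaps Rps25 and scored 0.812. The chromosome 2 block (chr2:121449195-121506665) held Serf2, Hypk, Mfap1b and Mfap1a, and the chromosome 3 block (chr3:96220361-96270132) the histone genes Hist2h2ac and Hist2h2bb.

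Of the class's 109 genes, 12 (11%) lay within 100 kb of another gene listed at 0, against 1.11% of genes at 100 CPM or more and 0.883% of all shared genes. The share was 4.96% of all genes in the bottom 10% of scores and 4.04% of those under 100 CPM. Among the 99 members above 0 the share was 6.06%. Neighbouring members also occurred away from these blocks, as at Dcakd and Nmt1 (0.340 and 0.203), Slirp and Snw1 (0.433 and 0.469), and Gnl3 and Pbrm1 (0.482 and 0.445), which overlap or share ends.

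**Figure D5:**
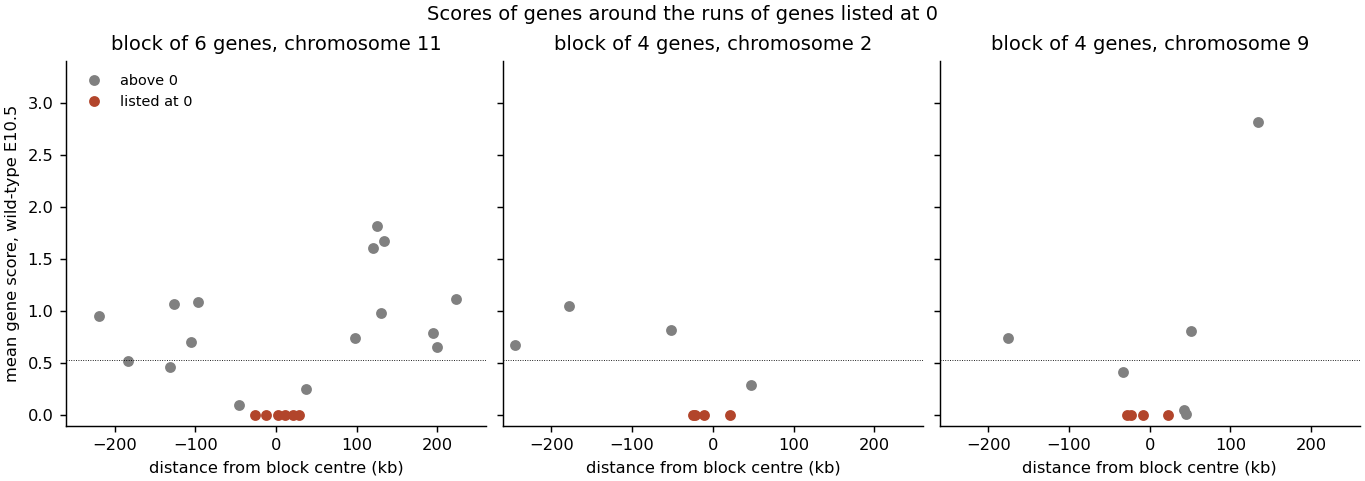
Mean wild-type gene score against distance of the gene's midpoint from the centre of each of the 3 largest blocks (kb), with genes listed at 0 in red and the dotted line at 0.533. Genes at 0 sit side by side, and scores such as 0.746 and 0.812 return within 100 kb.

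In other features the values of the low-score class were close to those of expressed genes at large. Another protein-coding gene overlapped 30.3% of its members and 25.7% of genes at 100 CPM or more. Another gene start lay within 1000 bp of the start for 26.6% and 21.8%. Promoters were matched for 92 of the 109 (84.4%), and their median CpG ratio was 0.847, against 0.846 for expressed genes. The letters TATAAA were in 13% of these promoters and in 9.15% of those of expressed genes, CCAAT in 44.6% and 40.3%, and GGGCGG in 66.3% and 67.7%, on either strand. Median gene length was 16484 bp against 14033 bp.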

How the data were processed

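The deposited RNA values are unnormalised UMI counts, per the file headers and the whole numbers themselves. The deposited ATAC matrices hold a signal per gene and nucleus (the gene score), scaled by the authors so that each nucleus sums to 10000 over 8269 genes, as the values show. The submitters' processing notes name build mm10. Not given in the sources used here are the aligner, the cell filters, the tool behind the gene score and the choice of its genes. Libraries were taken from barcode prefixes, and 0 columns of other samples were present. No doublets were removed.

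UMIs were summed over wild-type barcodes with at least 1000 genes and scaled to CPM. 1 UMI was worth 0.244 CPM, 1 CPM was 4.11 UMIs and 100 CPM was 410.7 UMIs. The kit tags each molecule at its 3′ end, so CPM was not divided by gene length. Scores were averaged over all nuclei. UMI sums carry exact 95% Poisson intervals, which cover counting error only, and the limit for 0 UMIs is 3 counts. Shares of genes carry no interval, because all genes were counted and genes are not independent. No interval is given for scores, whose depth is unknown. Gene positions came from GENCODE M21 (8254 of 8268 genes located) and promoters from RefSeq (GRCm38.p6, the same assembly as mm10). The calculations were tested on simulated data, with Python 3.11.15, numpy 2.4.6, scipy 1.17.1, pandas 2.3.3 and matplotlib 3.10.9.

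The members, the gene lists and the CpG limit of 0.6 were chosen with earlier results of these data known. Genes were named by rule: the 10 open but silent genes with the highest scores, the 10 low-score genes with the highest CPM and the 5 with the lowest score, the 3 nearest each limit, the 5 highest on both scales, up to 5 class members of each list and the progenitor factors. A few genes named by this rule are left out of the text. Other genes, among them those of the gut and immediate early lists, the neighbours of genes listed at 0 and the X-linked genes, were named after their values had been seen. Alternatives changed the cells, the summary of the score, the limits, the gene set and the pseudocount.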

Additional observations from a re-analysis of the deposited data

How the results depend on the processing

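Spearman's rho between score and CPM lay between 0.111 and 0.139 under 12 alternatives, and Pearson's r between 0.143 and 0.185 under 14, not counting other limits of the classes, which cannot change either. These included all barcodes, a minimum of 2000 genes, equal weight for each cell, thinning to 2000 UMIs, cells with an Epcam UMI, and the KO libraries. With the share of nuclei above 0, rho was 0.014, r 0.049, the low-score class 167 genes (73 of the 109 among them), the open but silent class 8 genes (3 of the 10 among them) and the ratio of mean CPM 0.907, below 1. With the median score, rho was 0.035, r 0.063, and the classes held 4 and 598 genes, because 3008 genes share a median of 0. By construction the class sizes followed the limits. They were 1 and 47 genes at 5% ends, 17 and 253 at 20% ends, 19 and 223 with limits of 2 and 50 CPM, and 46 low-score genes at 200 CPM or more. Open but silent genes numbered 5 in the KO libraries and 5 without genes overlapping another protein-coding gene, where fewer genes remained. That last alternative and leaving out X-linked genes were chosen after seeing the data. Thinning left 9 open but silent genes, 6 of the 10 among them. Otherwise the classes held 7 to 13 and 76 to 112 genes. No paired analysis was possible because each group had 1 library and no test was run. Depth limits the silent class, since 1 CPM is 4.11 UMIs.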

Other observations

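Among the genes that the accessibility file held, several other groups of developmental regulators had scores that ranked above their RNA. Most genes of these groups in the RNA file were not in it. Of 12 Hox genes in both files, from 39 in the RNA file, 2 (16.7%) were in the top 10% of scores. The list's median length was 3449.5 bp, and 22.3% of genes in the shortest length class were in that top 10%. Of the 12, 0 reached 100 CPM, where 19.6% of all shared genes did. The list's median was at score percentile 76.6 and at 13.5 CPM. Hoxa7 scored 2.72 with 26 UMIs (6.33 CPM) and Hoxa3 2.34 with 32 UMIs (7.79 CPM), while Hoxb4, with the most RNA of the list at 35.3 CPM, scored 1.49. In wild type at E13.5 Hoxa7 scored 1.57, Hoxa3 0.897 and Hoxb4 0.647. Of 6 muscle, heart and limb factors in both files, from 41 in the RNA file, 3 were in the top 10%. Among them were Six2 (2.63 at 4.38 CPM) and Nkx2-5 (2.22 at 8.04 CPM).

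Replication-dependent histone genes spanned the whole range of scores. Of 20 genes, 11 were in the top 10% and 3 in the bottom 10%. Hist1h4h scored 6.31 at 34.3 CPM and Hist1h2bj 5.29 at 15.1 CPM. Hist1h2ap, with the most RNA at 864.7 CPM, scored 1.47, and Hist1h1b, at 337.5 CPM, 0.624. Members of a histone family can be near-identical, so counts and scores may be uncertain where reads could be split, which was not measured here. Most replication-dependent histone RNAs lack a poly(A) tail, and its part in these RNA levels was not tested.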
